A study of Mus musculus with 10 samples.

Results

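The forkhead genes are a family of transcription factors that share a winged-helix DNA-binding domain, and 9 of the 21951 protein-coding genes in the annotation are described here: *Foxa1*, *Foxa2*, *Foxa3*, *Foxd3*, *Foxh1*, *Foxq1*, *Foxo1*, *Foxo3* and *Foxp1*. They were picked from the family with earlier results of these data known. A gene was called marked in a library where at least 1 bp of its promoter, taken as 1000 bp before and 100 bp after any annotated transcription start site (TSS) in GENCODE release M21 (GRCm38), lay under an H3K4me3 peak. The peaks came from CUT&Tag, where an antibody guides a transposase to the modified histone. The cells were nEnd, naive extra-embryonic endoderm grown in RPMI with Activin A, CHIR99021 and LIF (RACL) on plates coated with mouse embryonic fibroblasts, and derived from mouse embryonic stem cells that carry an OCT4-mCherry reporter. FACS on the reporter and on surface PDGFRA gave 3 populations, none of them treated: Oct4+ nEnd (reporter positive, PDGFRA negative, 4 libraries), DP nEnd (positive for both, 3 libraries) and Pdgfra+ nEnd (PDGFRA positive alone, 3 libraries). All 10 libraries come from this single reporter line, with 1 library more of Oct4+ nEnd than of the others. The study describes its H3K4me3 profiles as made from biological replicates, as many as there are DP nEnd or Pdgfra+ nEnd libraries here. The labels do not tie a library to a culture or sort, and p-values measure the spread between these libraries.

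FOXA proteins are pioneer factors that bind nucleosomal DNA and act with GATA factors in endoderm, where FOXA2 is expressed in the primitive endoderm (PrE) and its visceral derivative. FOXD3 is required to maintain the early epiblast (Epi) and is expressed in embryonic stem cells. FOXH1 carries SMAD2 and SMAD3 to DNA downstream of NODAL and Activin, and FOXO proteins are held in the cytoplasm when the PI3K-AKT pathway phosphorylates them. H3K4me3 marks the promoters of active and poised genes, most often at CpG-rich DNA, and spreads into broad domains at genes of cell identity.

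Each library is a list of peaks with a total signal (coverage summed over the peak) and a highest coverage. Coverage was not scaled between libraries, so a peak is given here by its presence, its width and its percentile, the share of the peaks of its own library with a value at or below its own. The libraries held 3477 to 10545 peaks, and Oct4+ nEnd replicate 3 held the fewest. The number of reads is unknown, so no counting interval could be given for a single peak, and errors are the SD over libraries. Of 9 epiblast marker genes, 9 were marked in every Oct4+ nEnd library, 5 in every DP nEnd library and 1 in every Pdgfra+ nEnd library. Of 10 PrE marker genes, 0 had a peak throughout Oct4+ nEnd, and 9 had one in every DP nEnd and in every Pdgfra+ nEnd library. Of all protein-coding genes, 18.1%, 38.6% and 33.2% were marked in every library of Oct4+, DP and Pdgfra+ nEnd. Single PrE markers were marked in Oct4+ nEnd replicates 1, 2 and 3 (7, 4 and 1 of 10 genes) and in 0 of 10 in replicate 4. Of 15 fibroblast markers, 12 were marked in no library, *Col1a1*, *Col1a2* and *Col3a1* among them, and no library had more than 3. In sorted bulk cells, fewer cells that carry the mark and less of the mark per cell cannot be told apart.

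*Foxa2* was marked in every DP nEnd and every Pdgfra+ nEnd library and in no Oct4+ nEnd library, and *Foxd3* showed the reverse, with a promoter peak in all 4 libraries of Oct4+ nEnd and in none of the other 6. These were the only members of the 9 that separated populations in this way. *Foxa3*, *Foxo1* and *Foxo3* were marked in all 10 libraries. In the order Oct4+, DP and Pdgfra+ nEnd, *Foxh1* was marked in 4, 3 and 2 libraries, *Foxp1* in 3, 3 and 2, and *Foxa1* in 0, 2 and 1. *Foxq1* had no peak over its promoter window in any library.

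**Figure D1:**
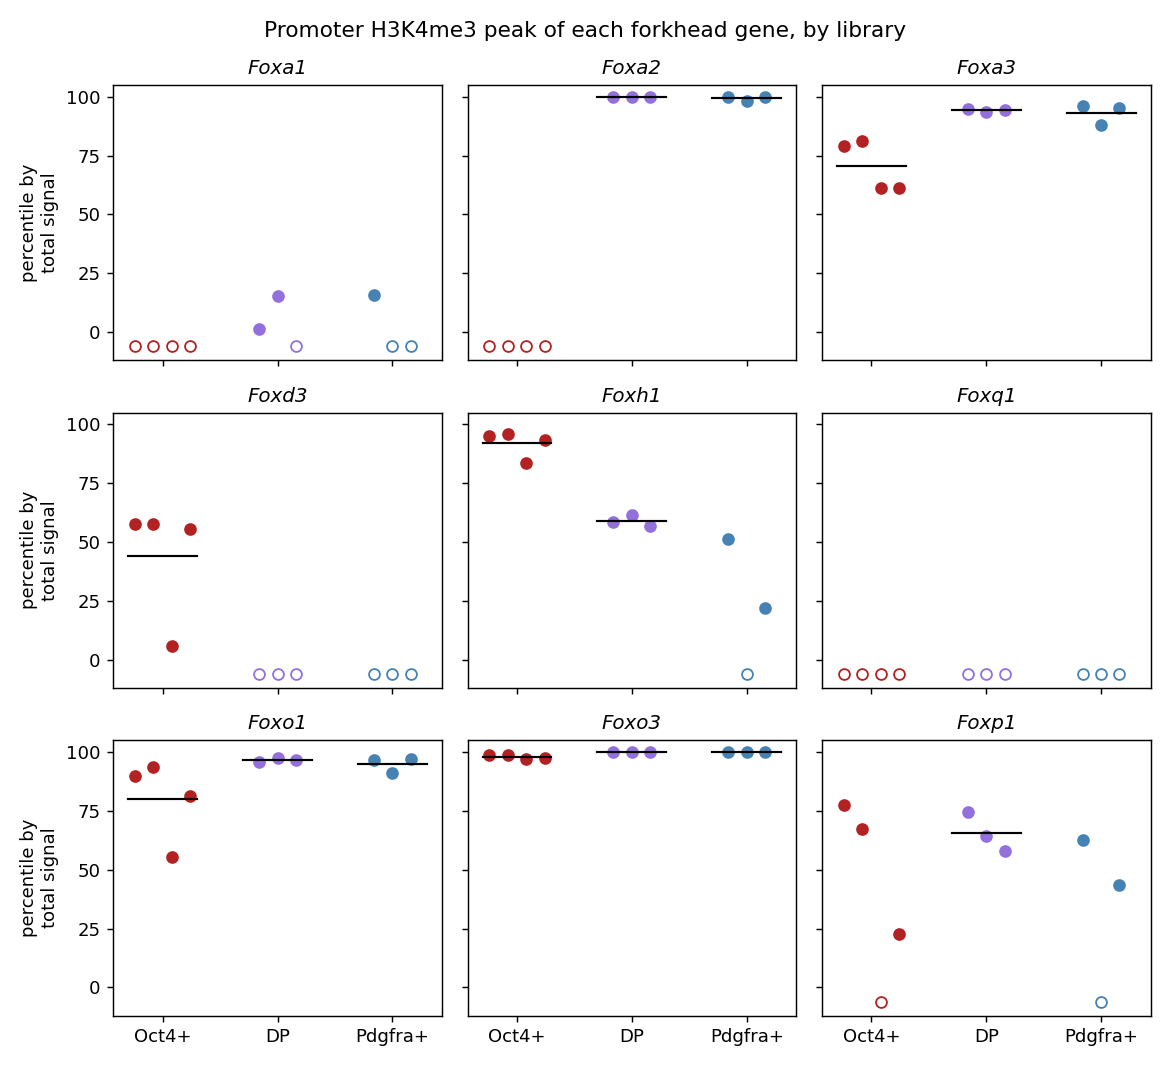
Percentile by total signal (y axis) of the promoter peak of each forkhead gene in each library, by population (x axis); filled points are libraries with a peak, open points below 0 are libraries without one, and lines are means where every library had a peak. *Foxa2* is filled in DP and Pdgfra+ nEnd alone (98.2 to 99.9), *Foxd3* in Oct4+ nEnd alone (5.72 to 57.8), and *Foxo3* lies above 96 in all 10 libraries.

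The presence of a peak was compared between populations by Fisher's exact test over libraries. For *Foxa2* and for *Foxd3*, 4 Oct4+ nEnd against 3 DP nEnd libraries gave an exact two-sided p of 0.0286, the smallest this design allows, and 0.649 after Benjamini-Hochberg adjustment over the 10603 protein-coding genes marked in either population. Against Pdgfra+ nEnd the exact p was again 0.0286 for both genes, and 0.851 adjusted over 11614 genes. Paired by replicate number, Oct4+ nEnd and Pdgfra+ nEnd differed at both genes in 3 of 3 pairs, where the smallest exact p is 0.25. Any pairing of these libraries gives this result, so it adds nothing to the counts. No gene of the annotation passed the adjusted test in either pair, where 467 and 390 genes had an unadjusted p under 0.05. *Foxd3* was therefore 1 of 9 members marked in every Oct4+ nEnd and no DP nEnd library, against 0.415% of all genes tested, and in every Oct4+ nEnd and no Pdgfra+ nEnd library, against 0.672%. *Foxa2* was 1 of 9 in the reverse directions, with 3.99% of genes tested marked throughout DP nEnd and in no Oct4+ nEnd library, and 2.69% throughout Pdgfra+ nEnd and in no Oct4+ nEnd library. *Foxq1*, marked in no library, is among the 9 members but not among the genes tested. The members were picked with earlier results of these data known, so these shares do not measure enrichment. Between DP nEnd and Pdgfra+ nEnd, 0 members were marked in every library of either population and in none of the other (0.214% and 0.00891% of the 11222 genes tested). Fisher's exact test cannot go below p = 0.10 for 3 libraries against 3.

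Among the *Foxa* genes, *Foxa2* (ENSMUSG00000037025.11, chr2:148042877-148046969, minus strand) carried 1 of the strongest peaks of the PrE-like libraries. Its percentile by total signal was 99.8 in all 3 DP nEnd libraries (99.77 ± 0.012, SD, n = 3) and 99.9, 98.2 and 99.9 in Pdgfra+ nEnd replicates 1, 2 and 3 (99.4 ± 0.985, SD, n = 3). By total signal it was peak number 20, 20 and 19 of the DP nEnd lists and number 7, 116 and 6 of the Pdgfra+ nEnd lists. The total signal was 548083, 797602 and 613519 in DP nEnd and 1075202, 125804 and 461303 in Pdgfra+ nEnd.

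The *Foxa2* peak was broad. It spanned 13543, 13300 and 12499 bp in DP nEnd and 13002, 4062 and 11206 bp in Pdgfra+ nEnd, and replicate 2 of Pdgfra+ nEnd stood apart from the other 5 libraries. In those 5 the peak covered 100% of the gene and ran 6141 to 6566 bp past its 3′ end, over the annotated starts of the lincRNA *9030622O22Rik*, while in Pdgfra+ nEnd replicate 2 it covered 92.3% of the gene and ended 313 bp inside it. A separate peak followed in that library after a gap of 832 bp, 4686 bp wide and at percentile 73.8 by total signal (64035), and the widths and percentiles of *Foxa2* given here are those of the promoter peak alone. Pdgfra+ nEnd replicate 2 also had the narrowest peaks in general, with a median width of 2204 bp against 3032 to 4222 bp in the other 9 libraries, and the part of this in the narrow *Foxa2* peak was not tested. DP nEnd exceeded Pdgfra+ nEnd by 3691 bp in mean width (exact two-sided permutation test, p = 0.20; adjusted p = 0.590 over 7174 genes), and the ranges overlapped. The difference was 1010 bp without Pdgfra+ nEnd replicate 2 (exact p = 0.30) and 5480 bp without replicate 1 (exact p = 0.10). By highest coverage the peak ranked lower than by total signal, at percentiles 82.1, 89.7 and 90.4 in DP nEnd and 93.4, 60.1 and 92.1 in Pdgfra+ nEnd.

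The position of highest coverage lay within 220 bp of the *Foxa2* TSS at 148045948 in all 6 libraries. Of the 3 RefSeq starts of the gene this one has the most CpG dinucleotides in the 250 bases before it (20, against 13 and 6 before the starts at 148045464 and 148046969). The sequences before the start under the summit and before the *Foxd3* start are shown because these genes separated the populations in opposite directions, and that of *Foxa3* because it was marked throughout. They run 5′ to 3′ on the gene's strand, from RefSeq (GRCm38.p6), with each CpG in capitals.
Foxa2, chr2:148045949-148046198, minus strand: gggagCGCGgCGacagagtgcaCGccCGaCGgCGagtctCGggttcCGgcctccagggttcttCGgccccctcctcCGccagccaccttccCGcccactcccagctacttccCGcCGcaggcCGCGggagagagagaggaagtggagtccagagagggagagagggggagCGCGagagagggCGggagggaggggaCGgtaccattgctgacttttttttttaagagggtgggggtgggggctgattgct
Foxd3, chr4:99656049-99656298, plus strand: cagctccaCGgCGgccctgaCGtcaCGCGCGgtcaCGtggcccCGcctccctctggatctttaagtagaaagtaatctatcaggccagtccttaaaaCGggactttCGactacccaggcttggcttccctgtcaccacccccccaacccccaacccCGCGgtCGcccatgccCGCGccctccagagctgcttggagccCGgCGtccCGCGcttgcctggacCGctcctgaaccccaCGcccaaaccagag
Foxa3, chr7:19023540-19023789, minus strand: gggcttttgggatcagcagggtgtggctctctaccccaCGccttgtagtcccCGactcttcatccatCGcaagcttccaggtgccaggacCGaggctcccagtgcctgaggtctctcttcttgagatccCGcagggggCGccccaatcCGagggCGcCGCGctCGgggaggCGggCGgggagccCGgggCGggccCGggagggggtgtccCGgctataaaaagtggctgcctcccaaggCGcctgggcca
The *Foxd3* sequence held 21 CpGs, the *Foxa2* sequence 20 and that of *Foxa3* 18. All 3 lie in the upper part of the 32851 RefSeq promoter windows, at percentiles 83.7 (*Foxa2*), 85.2 (*Foxd3*) and 80.3 (*Foxa3*), where the median window had 6 CpGs. The forkhead motif TGTTTAC, searched on both strands (GTAAACA), was found in 3.17% of these 250-base windows. Of the 11 windows of the 7 members with an entry, 1 held it, the *Foxa1* window, 141 bp upstream of the start.

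*Foxa1* (ENSMUSG00000035451.7, chr12:57540628-57546916, minus strand), which acts partly redundantly with *Foxa2* in endoderm, had weak peaks. Its percentile by total signal was 1.14 in DP nEnd replicate 1, 15.4 in DP nEnd replicate 2 and 15.9 in Pdgfra+ nEnd replicate 1, and the other 7 libraries had no peak. In DP nEnd replicate 1 its total signal of 51634 was 1.03 times the lowest in that library. The peaks were nonetheless 3232 to 6926 bp wide, and their highest coverage lay 352 to 354 bp downstream of the same TSS in all 3. Presence did not pass the test in any pair (Fisher's exact test, p = 0.143 between Oct4+ and DP nEnd and 0.429 between Oct4+ and Pdgfra+ nEnd).

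*Foxa3* (ENSMUSG00000040891.6, chr7:19013284-19023538, minus strand) was marked throughout by a peak that it shares with *Sympk*, a polyadenylation scaffold gene on the other strand whose nearest start is 839 bp away. The highest coverage lay 138 to 282 bp from a *Sympk* start and 1026 to 1170 bp upstream of the *Foxa3* start, nearer to *Sympk* in all 10 libraries. The percentile by total signal was 79.2, 81.3, 61.4 and 61.0 in Oct4+ nEnd replicates 1 to 4, and 94.8, 93.4 and 94.5 in DP nEnd. In Pdgfra+ nEnd it was 95.9, 88.2 and 95.3. Every DP nEnd and Pdgfra+ nEnd library was above every Oct4+ nEnd library. Oct4+ nEnd minus DP nEnd was -23.5 percentile points (exact permutation test, p = 0.0571; adjusted p = 0.279), and Oct4+ nEnd minus Pdgfra+ nEnd was -22.4 (exact p = 0.0571; adjusted p = 0.301). By highest coverage the same peaks ranked 76.7 to 94.1 in Oct4+ nEnd, 82.2 to 90.5 in DP nEnd and 75.1 to 81.9 in Pdgfra+ nEnd. The peak was 4652 ± 1593 bp wide in Oct4+ nEnd (SD, n = 4), 7093 ± 586 bp wide in DP nEnd (SD, n = 3) and 6796 ± 2016 bp wide in Pdgfra+ nEnd (SD, n = 3). The peak ended over the *Foxa3* gene body, and the share of the gene it covered was 5.36% to 28.6% in Oct4+ nEnd, 39.0% to 44.2% in DP nEnd and 20.1% to 51.9% in Pdgfra+ nEnd.

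*Foxd3* (ENSMUSG00000067261.4, chr4:99656299-99658622, plus strand) had a broad peak of low height in Oct4+ nEnd. Its percentile by total signal was 57.8, 57.6, 5.72 and 55.6 in replicates 1 to 4, and its percentile by highest coverage 17.1, 29.6, 2.70 and 14.9. Replicate 3, with the fewest peaks, stood apart. The widths were 7260, 5221, 3617 and 5511 bp. The peaks reached 1321 to 3941 bp upstream of the start, over the start of the lincRNA *Gm12688*, and covered 93.9% to 100% of the single-exon gene. The highest coverage lay inside the gene, 620 to 1262 bp downstream of its start, near the predicted miRNA *Gm23366* that lies within *Foxd3*.

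The *Foxd3* peak of replicate 3 was near the lower limit of what its list holds, and those of the other replicates were not. The total signals of 77610, 62336, 16625 and 51705 were 2.62, 2.79, 1.06 and 2.22 times the lowest total signal of their own libraries. In DP nEnd the lowest total signal of any peak was 50231 to 53198, and in Pdgfra+ nEnd it was 25245 to 27191. Coverage was not scaled between libraries, so these limits cannot be set against the *Foxd3* values of Oct4+ nEnd. Whether *Foxd3* signal lay under these limits in DP nEnd or Pdgfra+ nEnd was not tested. When each library was cut to its 3477 peaks with the highest total signal, *Foxd3* was no longer marked in Oct4+ nEnd replicate 1 and no member remained that was marked in every Oct4+ nEnd and no DP nEnd library. *Foxa2* kept its 6 peaks at that cut, at percentiles of 96.7 to 99.9.

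**Figure D2:**
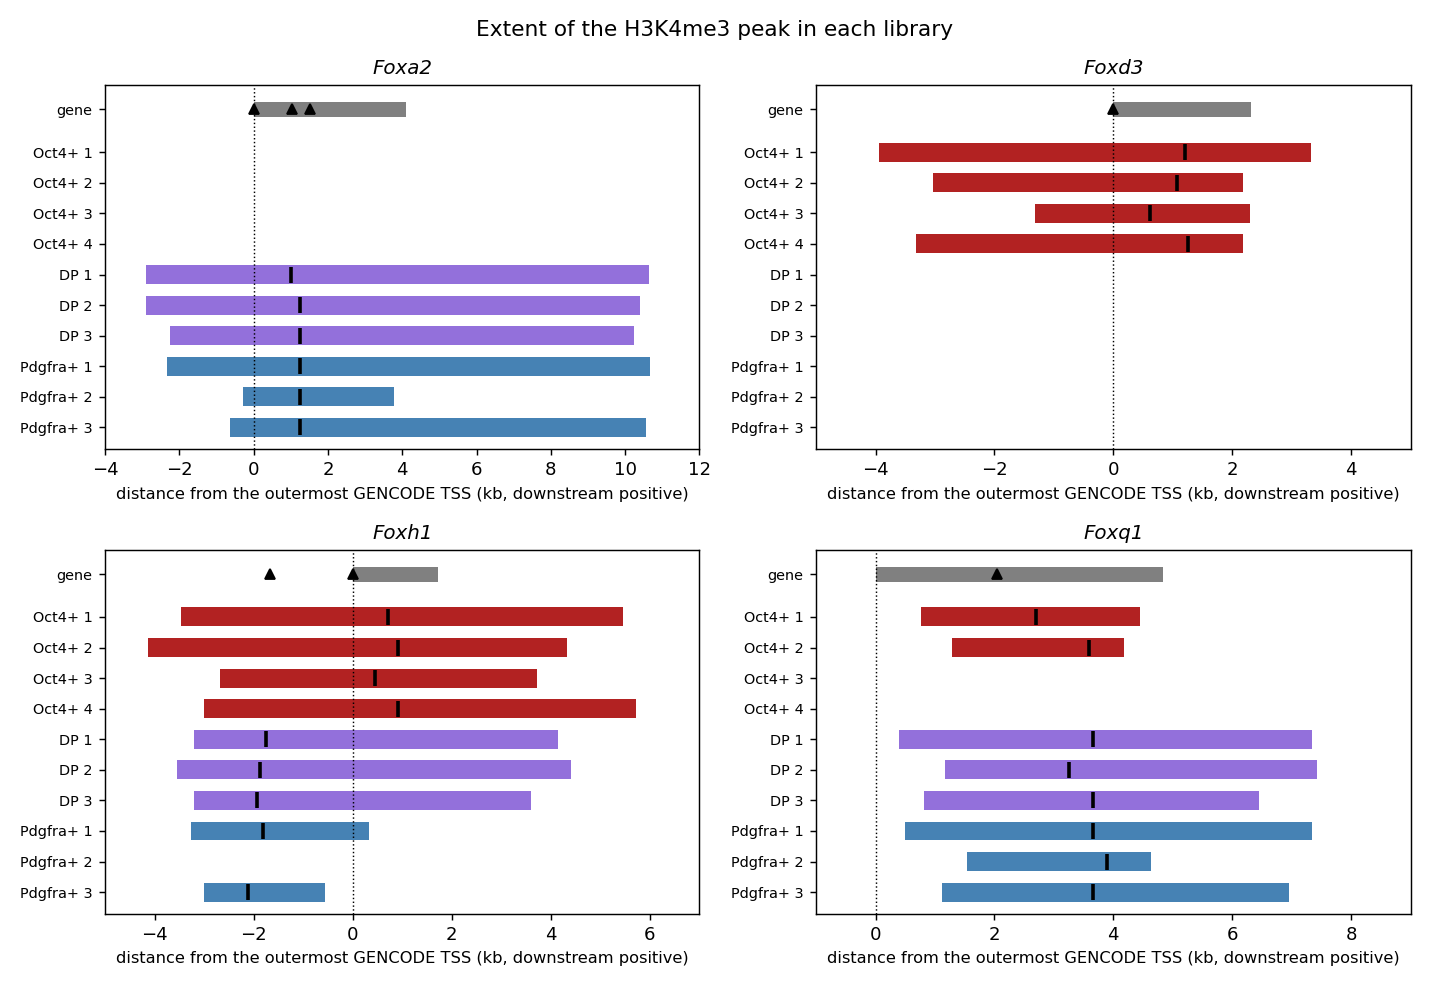
Extent of the peak at *Foxa2*, *Foxd3*, *Foxh1* and *Foxq1* in each library (rows), in kb from the outermost GENCODE start of the gene (x axis, downstream positive). Bars are peaks, black ticks the position of highest coverage, grey bars the GENCODE genes and triangles the RefSeq starts. The *Foxh1* ticks lie 459 to 906 bp downstream of 0 in Oct4+ nEnd and 1754 to 2112 bp upstream in the other populations.

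Of the 4 members with a peak in every library of Oct4+ nEnd and DP nEnd, *Foxh1* (ENSMUSG00000033837.5, chr15:76668225-76669948, minus strand) was the only one with a higher percentile by total signal in Oct4+ nEnd. By total signal its peak stood at 95.0, 95.8, 83.6 and 93.5 in Oct4+ nEnd replicates 1 to 4, and at 58.6, 61.4 and 56.8 in DP nEnd. It stood at 51.2 and 22.1 in Pdgfra+ nEnd replicates 1 and 3 and was absent from replicate 2. The populations did not overlap. Oct4+ nEnd exceeded DP nEnd by 33.0 percentile points (92.0 ± 5.64, SD, n = 4, against 58.9 ± 2.34, SD, n = 3; exact permutation test, p = 0.0286; adjusted p = 0.279 over 3882 genes). With equal numbers of peaks per library the difference was 84.2 points (exact p = 0.0286), as the DP nEnd peaks then stood at 1.96 to 5.84. By highest coverage the ranges were 22.3 to 80.1 and 18.3 to 31.4, which overlap (exact p = 0.0857).

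The shape of the *Foxh1* peak also differed. In all 4 Oct4+ nEnd libraries the highest coverage lay inside the gene, 459 to 906 bp downstream of the start at 76669948. In all 3 DP nEnd and both marked Pdgfra+ nEnd libraries it lay upstream, 55.5 to 412 bp from the nearest start of *Ppp1r16a*, a protein phosphatase regulatory subunit gene on the other strand. RefSeq also places a *Foxh1* start there, at 76671614, 88.5 to 446 bp from these positions, so the deposited peaks do not tell the 2 genes apart. The peak covered all of *Foxh1* in the 7 libraries of Oct4+ nEnd and DP nEnd, 19.5% of it in Pdgfra+ nEnd replicate 1 and 0% in replicate 3. Counting a peak only where its highest coverage was nearest to a GENCODE start of the member, a rule added after these values were seen, *Foxh1* kept its mark in the 4 Oct4+ nEnd libraries and in 0 of the other 6. Under the same rule *Foxa3* was marked in none and *Foxd3* in 1 of 4 Oct4+ nEnd libraries.

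*Foxq1* (ENSMUSG00000038415.10, chr13:31556134-31560976, plus strand), known for its role in hair differentiation, was unmarked by the promoter window but not devoid of H3K4me3. A peak that began 392 to 1531 bp downstream of the GENCODE start covered 59.6% to 91.9% of the gene in 8 of 10 libraries, all but Oct4+ nEnd replicates 3 and 4. RefSeq starts *Foxq1* at 31558170, 2036 bp downstream of the GENCODE start, and its coding sequence begins at 31558917. With the RefSeq start, a choice made after seeing the data, *Foxq1* was marked in 2 of 4 Oct4+ nEnd libraries and in all 6 others (Fisher's exact test, p = 0.429 for Oct4+ nEnd against either). The peak had percentiles by total signal of 38.7 and 12.2 in Oct4+ nEnd replicates 1 and 2, of 96.9, 95.9 and 97.1 in DP nEnd, and of 98.1, 93.4 and 96.9 in Pdgfra+ nEnd. By highest coverage it stood at 7.81 and 4.57 in Oct4+ nEnd, 86.3 to 95.9 in DP nEnd and 53.1 to 93.2 in Pdgfra+ nEnd. The 2 Oct4+ nEnd peaks were below all 6 others on both rankings. The antisense gene *A530084C06Rik* overlaps *Foxq1*, and its start at 31559333 lay 61.5 to 692 bp from the highest coverage.

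*Foxo1* and *Foxo3*, which encode effectors that insulin signalling keeps out of the nucleus, were marked in all 10 libraries. *Foxo3* (ENSMUSG00000048756.11, chr10:42181841-42276755, minus strand) had the highest mean percentile of the members in each population, although *Foxa2* stood above it in Pdgfra+ nEnd replicates 1 and 3. By total signal it stood at 98.8, 98.9, 96.9 and 97.4 in Oct4+ nEnd replicates 1 to 4, at 99.8, 99.8 and 99.9 in DP nEnd and at 99.8, 99.9 and 99.9 in Pdgfra+ nEnd. The difference by total signal was -1.83 percentile points for Oct4+ nEnd minus DP nEnd (exact permutation test, p = 0.0857; adjusted p = 0.291) and -1.88 for Oct4+ nEnd minus Pdgfra+ nEnd (exact p = 0.0571; adjusted p = 0.301), with no overlap. It ranked 92 to 126 among the peaks of the Oct4+ nEnd libraries, 12 to 17 in DP nEnd and 5 to 18 in Pdgfra+ nEnd. By highest coverage it stood at 83.5 ± 3.27 in Oct4+ nEnd (SD, n = 4), 95.0 ± 2.06 in DP nEnd (SD, n = 3) and 95.7 ± 0.891 in Pdgfra+ nEnd (SD, n = 3). The difference by highest coverage was -11.5 percentile points for Oct4+ nEnd minus DP nEnd and -12.2 for Oct4+ nEnd minus Pdgfra+ nEnd (exact permutation test, p = 0.0286 for each; adjusted p = 0.325 and 0.349), with no overlap. With equal numbers of peaks these differences were -19.6 (exact p = 0.171) and -20.9 (exact p = 0.143), and paired by replicate number the latter was -12.6 (exact p = 0.25, the smallest possible). The peak was 5602 to 8499 bp wide, with overlap in each pair of populations (Oct4+ nEnd minus DP nEnd -910 bp, exact p = 0.114; Oct4+ nEnd minus Pdgfra+ nEnd 83.2 bp, exact p = 0.857), and lay over the upstream group of 4 starts, while the separate *Foxo3* start at 42258366 was not marked in any library.

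*Foxo1* (ENSMUSG00000044167.6, chr3:52268336-52353221, plus strand) stood at 90.0, 93.8, 55.4 and 81.2 by total signal in Oct4+ nEnd replicates 1 to 4. It stood at 95.6, 97.5 and 96.8 in DP nEnd and at 96.6, 91.1 and 97.1 in Pdgfra+ nEnd. Oct4+ nEnd replicate 3 was again the lowest. DP nEnd lay above every Oct4+ nEnd library (Oct4+ minus DP, -16.6 percentile points; exact permutation test, p = 0.114; adjusted p = 0.341). Pdgfra+ nEnd overlapped with Oct4+ nEnd (Oct4+ minus Pdgfra+, -14.8 points; exact p = 0.20). Without Oct4+ nEnd replicate 3 these differences were -8.32 (exact p = 0.10) and -6.61 (exact p = 0.20). The antisense RNA *Gm20402* starts 1099 bp inside the gene under the same peak, and the highest coverage was nearer to its start than to that of *Foxo1* in 5 of 10 libraries.

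*Foxp1* (ENSMUSG00000030067.17, chr6:98925338-99522721, minus strand), a repressor with a splice form known from embryonic stem cells, has 22 annotated starts over 597384 bp of DNA, and 2 groups of them were marked. At the internal group of 6 starts (99027991 to 99028942) a peak was called in Oct4+ nEnd replicates 1, 2 and 4, at percentiles of 77.3, 67.3 and 22.5 by total signal. It was called in DP nEnd replicate 2 at 5.42 and in Pdgfra+ nEnd replicate 1 at 6.60. At the distal group of 4 starts (99520997 to 99522721) peaks were called in Oct4+ nEnd replicates 1 and 2 at 48.8 and 46.6, in all 3 DP nEnd libraries at 74.7, 64.4 and 57.8, and in Pdgfra+ nEnd replicates 1 and 3 at 62.7 and 43.3. Where a library had both peaks the internal was the higher in Oct4+ nEnd (2 of 2 libraries) and the distal in the other populations (2 of 2 libraries). Presence did not pass the test at either group (Fisher's exact test, p = 0.486 at the internal and 0.429 at the distal group for Oct4+ nEnd against DP nEnd). The other 12 starts had no peak in any library. The authors' consensus peaks held both groups in Oct4+ nEnd and the distal group alone in DP nEnd and Pdgfra+ nEnd. Percentiles of *Foxp1* as 1 gene therefore set different promoters side by side.

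**Figure D3:**
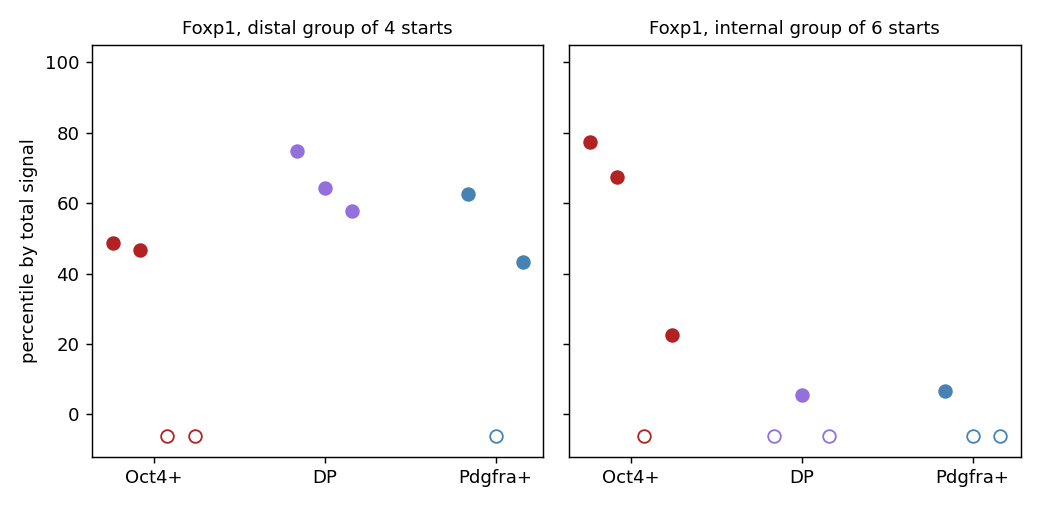
Percentile by total signal (y axis) of the peak over the distal (left) and internal (right) group of *Foxp1* starts in each library, by population (x axis); open points are libraries without a peak. The internal group reaches 77.3 in Oct4+ nEnd and at most 6.60 in the other populations.

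The percentiles could be tested for the members with a peak in every library of a pair. Between Oct4+ nEnd and DP nEnd the libraries did not overlap by total signal for 4 of 4 such members, *Foxh1* (higher in Oct4+ nEnd), *Foxa3*, *Foxo1* and *Foxo3* (higher in DP nEnd), where 33.4% of all 3882 genes tested did not overlap. Between Oct4+ nEnd and Pdgfra+ nEnd 2 of 3 did not overlap, *Foxa3* and *Foxo3*, against 27.8% of the 3616 genes tested. Between DP nEnd and Pdgfra+ nEnd 0 of 4 were free of overlap (10.3% of the 7174 genes tested). By highest coverage, *Foxo1* and *Foxo3* did not overlap between Oct4+ nEnd and DP nEnd (22.5% of all genes tested), *Foxo3* alone between Oct4+ nEnd and Pdgfra+ nEnd (13.2%), and *Foxa3* and *Foxo1* between DP nEnd and Pdgfra+ nEnd (7.21%). By width, *Foxa3* did not overlap between Oct4+ nEnd and DP nEnd (11.1%), no member between Oct4+ nEnd and Pdgfra+ nEnd (10.5%), and *Foxo1* between DP nEnd and Pdgfra+ nEnd (15.2%). No gene passed after adjustment in any of these tests. With an unadjusted p under 0.05 by total signal there were 338 genes for Oct4+ nEnd against DP nEnd, 366 for Oct4+ nEnd against Pdgfra+ nEnd and 0 for DP nEnd against Pdgfra+ nEnd, where p cannot go below 0.10.

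**Figure D4:**
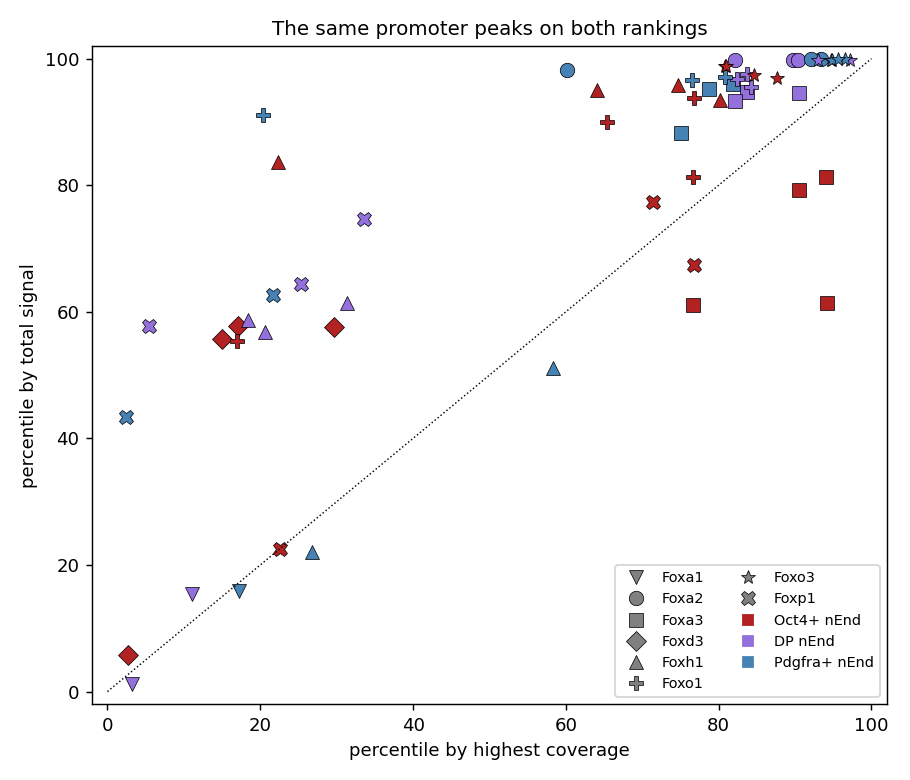
Percentile by highest coverage (x axis) and by total signal (y axis) of each promoter peak, with a symbol for each gene, a colour for each population and a dotted line where both are equal. The *Foxd3* peaks of Oct4+ nEnd replicates 1, 2 and 4 lie far above the line (55.6 to 57.8 by total signal, 14.9 to 29.6 by highest coverage), and the *Foxa3* peaks of Oct4+ nEnd lie below it.

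Within Oct4+ nEnd the order by mean percentile was *Foxo3*, *Foxh1*, *Foxo1*, *Foxa3* and *Foxd3*, and the ranges of *Foxh1* and *Foxo1*, and of *Foxo1* and *Foxa3*, overlapped. Within DP nEnd the order was *Foxo3*, *Foxa2*, *Foxo1*, *Foxa3*, *Foxp1* and *Foxh1*, and only the last pair overlapped. Within Pdgfra+ nEnd it was *Foxo3*, *Foxa2*, *Foxo1* and *Foxa3*, with overlap between *Foxo3* and *Foxa2* and between *Foxo1* and *Foxa3*.

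The genes most like *Foxa2* were found by the mean absolute difference in percentile over the 10 libraries, with 0 where no peak was called. They included *Myl3* and *Pth1r* (0.411 each, under 1 shared peak), *Hs3st1* (1.31) and *Flt1* (1.5). *Hs3st1* and *Flt1* had peaks in the 6 libraries that mark *Foxa2* and none in Oct4+ nEnd, while the shared peak of *Myl3* and *Pth1r* was also called in Oct4+ nEnd replicate 1. The genes most like *Foxd3* were *Eng* (1.15), *Inpp5d* (1.98), *Zyg11a* (2.70), *Icam1* (2.95) and *Mcam* (3.19), each marked in all 4 Oct4+ nEnd libraries and in none of the other 6.

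Of the 35 other forkhead genes, 7 were marked in every Oct4+ nEnd library, 13 in every DP nEnd and 10 in every Pdgfra+ nEnd library, beside 18.1%, 38.6% and 33.2% of all protein-coding genes, and 15 were marked in none. *Foxc1*, *Foxd2* and *Foxf2* were marked in every DP nEnd and no Oct4+ nEnd library. *Foxf2* stood at 50.8 to 57.9 in DP nEnd, *Foxc1* at 2.57 to 30.3 and *Foxd2* at 0.475 to 23.7, all below *Foxa2*. None of the 35 was, like *Foxd3*, marked throughout Oct4+ nEnd and in no library of DP nEnd or of Pdgfra+ nEnd.

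Of 12 partners and targets of FOXH1 in the NODAL pathway, 6, 8 and 7 were marked in every library of Oct4+, DP and Pdgfra+ nEnd. Beside them, 18.1%, 38.6% and 33.2% of all protein-coding genes were so marked. *Nodal*, the ligand, had a peak in each of the Oct4+ nEnd (95.7 to 99.1) and DP nEnd libraries (30.4 to 37.9) and in no Pdgfra+ nEnd library. *Tdgf1*, its co-receptor, was marked in 4 of 4 (89.4 to 97.7), 1 of 3 (0.441) and 0 of 3. *Nodal* and *Tdgf1*, like *Foxh1*, therefore had their highest percentiles in Oct4+ nEnd.

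Of 14 endoderm genes linked to FOXA factors, 1 was marked in every Oct4+ nEnd library, 5 in every DP nEnd and 4 in every Pdgfra+ nEnd library. These shares (7.14%, 35.7% and 28.6%) lay below the 18.1%, 38.6% and 33.2% of all protein-coding genes. *Lhx1* was marked in 3 of 3 DP nEnd libraries (7.51 to 15.0), 1 of 3 Pdgfra+ nEnd libraries and no Oct4+ nEnd library. The liver and visceral endoderm effectors *Ttr*, *Afp*, *Alb*, *Apoa1*, *Apoa2* and *Apob*, and the antagonist *Cer1*, were marked in none.

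Of 20 regulators of FOXO proteins, 17 had a peak throughout Oct4+ nEnd and 20 in every DP nEnd and every Pdgfra+ nEnd library, where 18.1%, 38.6% and 33.2% of all protein-coding genes had a peak in every library of Oct4+, DP and Pdgfra+ nEnd. *Pik3r1*, a PI3K subunit, and *Irs1*, an insulin receptor substrate, were marked in 2 of 4 Oct4+ nEnd and all other libraries. Of 14 FOXO targets, 9, 14 and 11 were marked in every library of Oct4+, DP and Pdgfra+ nEnd. *Klf2* was marked in 4 of 4 (92.8 to 95.8), 3 of 3 (30.4 to 41.0) and 1 of 3 libraries (24.2), and *Sesn3* in 2 of 4, 3 of 3 and 3 of 3. The Oct4+ nEnd counts were the lowest in replicates 3 and 4, the libraries with the fewest peaks, where 17 of 20 regulators and 9 and 11 of 14 targets were marked, against all of them in replicates 1 and 2, and the part of peak number in these counts was not tested.

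Among the cell markers, *Pou5f1*, *Nanog*, *Sox2* and *Esrrb* had peaks throughout Oct4+ nEnd (96.8 to 100) and DP nEnd and in no Pdgfra+ nEnd library, as *Nodal* was. In DP nEnd *Pou5f1* stood at 62.2 to 72.4 and *Nanog* at 11.5 to 19.6. *Fgf4*, a growth factor gene, and *Prdm14*, a pluripotency regulator, named after their values were seen, had peaks in every Oct4+ nEnd library and in no other, as *Foxd3* did. *Klf4*, named in the same way, stood higher in DP nEnd (99.4 to 99.7) than in Oct4+ nEnd (95.0 to 97.9). *Dab2* and *Sox7*, PrE genes, were marked as *Foxa2* was, at 83.0 to 90.1 and 69.1 to 70.7 in DP nEnd. Of the trophectoderm markers, *Tfap2c* had a peak in the 4 Oct4+ nEnd libraries alone (46.1 to 80.4) and *Gata3* in all 6 other libraries (6.80 to 58.2). Of the fibroblast markers, *Twist1* was marked in 2, 2 and 1 libraries at percentiles of at most 13.1, and *Tbx15* in 0, 1 and 1.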

How the data were processed

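H3K4me3 was measured by CUT&Tag in 10 libraries of sorted cells. According to the methods and the submitters' processing notes, reads were demultiplexed with bcl2fastq 2.19.1, aligned to mm10 with Bowtie2 and handled with SAMtools 1.12 and bedtools 2.26.0, and the authors called peaks per library against IgG (SEACR, stringent). The deposited signal of a peak is its total coverage and its highest coverage, not scaled between libraries. The authors' consensus lists (DiffBind) were deposited with positions and a constant other column, and no start of the Oct4+ nEnd consensus came from replicate 3 alone (0 of 7860). Versions of Bowtie2 and SEACR are not given in the sources used here, depth is unknown, and the study's other marks were not analysed here.

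Promoters ran from 1000 bp before to 100 bp after each TSS of 21951 protein-coding genes. The peak with the highest total signal was taken where several overlapped. Deviations from the population means correlated at 0.193, 0.125 and 0.137 between same-numbered Oct4+ nEnd and Pdgfra+ nEnd libraries. Their replicate numbers were taken to pair them, from these data and not from the labels. Oct4+ nEnd replicate 4 and Pdgfra+ nEnd replicate 3 correlated at 0.142. Differently numbered libraries ran from -0.378 to 0.309 over all pairs of populations, so the correlations do not establish this pairing. Presence was compared with Fisher's exact test, and percentiles and widths with exact two-sided permutation tests of the difference in means, each run over all genes with Benjamini-Hochberg adjustment (threshold 0.05). All 9 members were named, with the 5 genes most like *Foxa2* and *Foxd3*, up to 4 genes per list that separated populations (otherwise 2 with the largest difference), and genes that share a peak with a member. Some genes that this rule names are not reported here. The members and lists were chosen with earlier results of these data known. Alternatives were a wider promoter (2500 bp either way), 50% of the window covered, equal numbers of peaks (3477), TSS of protein-coding transcripts alone, no peak as percentile 0, other measures of width, consensus peaks, a replicate block and leaving out each library. The RefSeq starts, the nearest start to the highest coverage, the groups of *Foxp1* starts (within 5000 bp) and the cover of gene bodies were added after seeing the data. The tests were run in scipy 1.17.1 under Python 3.11.15, tables in pandas 2.3.3, arrays in numpy 2.4.6 and plots in matplotlib 3.10.9, and the code was tested on simulated data.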

Additional observations from a re-analysis of the deposited data

Results flagged for a closer look

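The *Foxd3* promoter peak of Oct4+ nEnd replicate 3 stood far from those of the other 3 Oct4+ nEnd libraries. Its percentile by total signal was 5.72, against 55.6 to 57.8, and the gap was 0.959 of the whole range, above Dixon's critical value for 4 libraries. It was the only such value among 15 groups of 4 libraries tested, where chance gives about 1 in 20. Replicate 3 had 3477 peaks, against 4887 to 9144 in the other Oct4+ nEnd libraries, and the part of this in the low percentile was not tested.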

How the results depend on the processing

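The counts of members that separated populations were 1 in each direction between Oct4+ nEnd and each other population, and 0 between DP nEnd and Pdgfra+ nEnd. With equal numbers of peaks, members marked in every Oct4+ nEnd and no DP nEnd library numbered 0, since *Foxd3* was lost, and those in every DP nEnd and no Pdgfra+ nEnd library 2 (*Foxh1* and *Foxp1*). With consensus peaks, 2 were marked in DP nEnd and not Oct4+ nEnd (*Foxa1* and *Foxa2*) and 1 in DP nEnd and not Pdgfra+ nEnd (*Foxa1*). With equal numbers of peaks, and with the highest coverage required nearest to the member, the member marked in every Oct4+ nEnd and no Pdgfra+ nEnd library was *Foxh1*, not *Foxd3*, and under the latter rule the same held against DP nEnd. With RefSeq starts these counts did not move. Leaving out 1 library gave 1 to 2 members marked in every DP nEnd and no Oct4+ nEnd library (2 without DP nEnd replicate 3, when *Foxa1* joins). Members whose percentiles did not overlap numbered 2 to 4 for Oct4+ nEnd and Pdgfra+ nEnd (4 without Pdgfra+ nEnd replicate 2) and 0 to 3 for DP nEnd and Pdgfra+ nEnd (3 without Pdgfra+ nEnd replicate 2, 1 without replicate 1). Of 117 values of the counts under all alternatives, 109 stayed within 1.5 times the main count. These values compare counts alone, and an unchanged count can hold another member, as *Foxh1* in place of *Foxd3* above.

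The differences that turned in sign had an unadjusted exact p of 0.0571 or more in every setting run, and 8 of them turned without Pdgfra+ nEnd replicate 2. Leaving out 1 library, Oct4+ nEnd minus Pdgfra+ nEnd ran from -19.7 to 13.7 for *Foxo1* by highest coverage, from -124 to 406 bp for *Foxo1* width, from -209 to 543 bp for *Foxo3* width and from -25 to 33.3 percentage points for *Foxp1* presence. DP nEnd minus Pdgfra+ nEnd ran from -0.168 to 0.686 for *Foxa2* by total signal, -5.33 to 11.3 by highest coverage, -1.39 to 2.48 for *Foxa3* by total signal, -806 to 1171 bp for *Foxa3* width, -0.202 to 2.80 for *Foxo1* by total signal and -1.76 to 0.295 for *Foxo3* by highest coverage. With equal numbers of peaks *Foxo1* by highest coverage was 6.53 (Oct4+ nEnd minus Pdgfra+ nEnd). As percentiles of the width, Oct4+ nEnd minus Pdgfra+ nEnd was -19.3 for *Foxo1* and -8.19 for *Foxo3*, and DP nEnd minus Pdgfra+ nEnd was -4.87 for *Foxa3*, -5.56 for *Foxo1* and -3.64 for *Foxo3*. The cause was not tested.

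With equal numbers of peaks *Foxa3* and *Foxo3* by total signal reached an exact p of 0.0286 in both pairs with Oct4+ nEnd (*Foxa3* -34.2 and -32.9, *Foxo3* -2.73 and -2.84). Leaving out a library puts the smallest possible p at 0.0667 or 0.10, so no p of 0.0286 could remain.

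The labels do not say that replicate numbers mark shared sorts. Same-numbered libraries all correlated above 0.1 for Oct4+ nEnd and Pdgfra+ nEnd. They correlated at 0.0253 to 0.133 for Oct4+ nEnd and DP nEnd and at -0.201 to 0.199 for DP nEnd and Pdgfra+ nEnd. Differently numbered libraries correlated at -0.378 to 0.309 over all pairs of populations. These values do not settle which libraries are paired. With the replicate block (3 shared numbers, smallest p 0.25) no test could pass, so it says nothing on stability. The *Foxh1* difference for Oct4+ nEnd minus DP nEnd was 32.5 percentile points and *Foxo3* width for Oct4+ nEnd minus Pdgfra+ nEnd was -22.3 bp.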
